A study of Homo sapiens with 1 sample.

Results

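The members described here were 10 genes known as markers or regulators of the pluripotent state, namely POU5F1, NANOG, TDGF1, ZFP42, DPPA4, LIN28A, LIN28B, L1TD1, SALL4 and DNMT3B. They were taken by gene symbol, and all 10 were found among the 33538 genes listed. The RNA came from cells of the H9 line, human embryonic stem cells (hESCs) of genotype WT with hHAR123, the human form of an enhancer within the gene SMG6. The hESCs had been driven toward neural progenitor cells (NPCs) with 1 µM Dorsomorphin and 10 µM SB431542, which block BMP and activin-type signalling and so favour neural fate. They spent 2 days as colonies, with 5 µM Rock inhibitor added, then 5 days under rotation as embryoid bodies and 7 days on Matrigel without those inhibitors. Clones were pooled before capture, and no rosettes had been selected yet, so other derivatives could still be present. There was 1 library of 1 group and hence no replicate, and no undifferentiated cells were analysed here. Kept and lost therefore describe a level at the end of the protocol, not a measured change, and no test was possible.

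POU5F1 (OCT4) and NANOG are transcription factors at the centre of the network that holds stem cells pluripotent, and POU5F1 binds DNA together with SOX2, which neural progenitors also use. LIN28A and LIN28B are RNA-binding proteins that block maturation of let-7 microRNAs and are known in both stem cells and early neural progenitors. DPPA4, L1TD1, SALL4 and DNMT3B are abundant in pluripotent cells, and DNMT3B is a methyltransferase that places new DNA methylation.

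The upstream sequence of NANOG is shown because it holds a joint site for SOX2 and POU5F1, whose RNAs ended at opposite levels in these cells. The bases are the 250 before the RefSeq start of NANOG at chr12:7789152-7789401 (GRCh38.p14, plus strand), 5′ to 3′, with the joint site in capitals. The search was for CATTGT (SOX), 1 base, and ATGCAAA (OCT) on both strands, and the match lay on the minus strand beginning 120 bases before the start.
NANOG: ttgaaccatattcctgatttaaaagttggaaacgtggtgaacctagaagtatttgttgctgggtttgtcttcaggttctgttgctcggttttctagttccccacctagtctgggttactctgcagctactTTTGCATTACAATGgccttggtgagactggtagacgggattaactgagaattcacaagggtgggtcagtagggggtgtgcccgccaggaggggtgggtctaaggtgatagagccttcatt
The joint site occurred in 2 of 35116 RefSeq promoters of this length (0.00570%), and ATGCAAA alone, which the joint site contains, occurred in 3.94%. An exact match to a longer motif is rarer by its length alone, so these shares do not compare the motifs. The windows before DPPA4 and L1TD1, a pair of members with abundant RNA, held neither. Nearly any window lacks a site this rare, so they are shown only as examples, from chr3:109337547-109337796 (minus strand) and chr1:62194599-62194848 (plus strand).
DPPA4: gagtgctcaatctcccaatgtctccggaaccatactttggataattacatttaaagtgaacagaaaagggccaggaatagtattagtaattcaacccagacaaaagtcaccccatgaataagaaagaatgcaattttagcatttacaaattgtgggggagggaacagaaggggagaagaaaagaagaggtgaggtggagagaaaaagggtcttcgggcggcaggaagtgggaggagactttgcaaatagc
L1TD1: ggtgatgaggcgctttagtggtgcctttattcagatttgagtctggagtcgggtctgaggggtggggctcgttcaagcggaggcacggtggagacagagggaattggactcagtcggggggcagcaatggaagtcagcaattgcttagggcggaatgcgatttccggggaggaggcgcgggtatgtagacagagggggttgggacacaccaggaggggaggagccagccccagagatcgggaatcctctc
CpG pairs, the sites that DNMT3B methylates, numbered 4 before NANOG, 3 before DPPA4 and 12 before L1TD1, against a median of 11 over all promoters of this length. A match is a description of letters and not evidence of binding. Windows were also read for DNMT3B, both starts of LIN28B and ZFP42, which had little RNA here, and none of them held either motif. No window was available for POU5F1, TDGF1, LIN28A or SALL4. The presence of a site was therefore not related to RNA level.

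The library held 14726 barcodes, of which 13925 were kept as cells with 2000 to 10000 detected genes and under 10% mitochondrial counts. Kept cells had a median of 17900 unique molecular identifiers (UMIs, each counting 1 captured RNA molecule) and ranged from 3167 to 118188. Clustering without the 10 members gave 10 clusters in 3 classes, named from marker genes. Forebrain NPC-like cells (12386, 88.9%) carried SIX3 at 329 CPM and SOX2 at 409 CPM, where CPM is UMIs of a gene per 1000000 UMIs of the group. Contractile NPC-like cells (1433, 10.3%) carried the actin-binding gene TAGLN at 4604 CPM against 545 CPM in the forebrain class, and differentiating-progenitor-like cells (106, 0.761%) carried the neuronal gene STMN2 at 2372 CPM. The contractile cells were deeper, at a median of 49088 UMIs against 17143.5 in forebrain and 13414 in differentiating cells. The contractile class joined cluster 4 (1266 cells, median 52202.5 UMIs) with the shallow cluster 9 (167 cells, median 9615 UMIs). Clusters 7 and 8 of the forebrain class held intermediate TAGLN, at 1793 and 2190 CPM, so the border between these classes was soft. No cluster met the naming rule for pluripotent cells, whose 5 markers are all members, so this restates their levels. Intervals are 95% and exact, and cover counting error only.

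The 10 genes fell into an abundant set of 6 and a trace set of 4, with none between. LIN28B, LIN28A, DPPA4, L1TD1, DNMT3B and SALL4 stood at 10 CPM or more, a level that 29.8% of all listed genes reached. NANOG, ZFP42, POU5F1 and TDGF1 lay under 1 CPM, as did 53.4% of all listed genes. The lowest of the abundant set exceeded the highest of the trace set on the CPM scale in all cells, at 54.0 for SALL4 against 0.318 for NANOG, and a gap was present in each class, as the plot of levels by class shows.

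**Figure D1:**
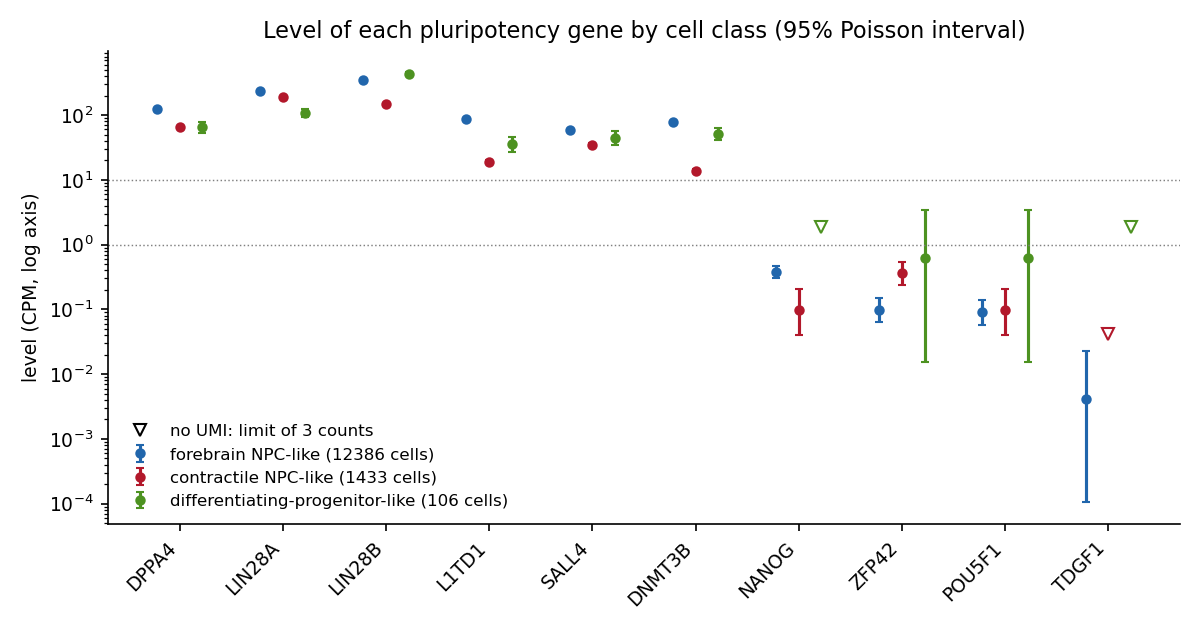
Level of each gene in CPM (log axis) in the 3 cell classes, with exact 95% Poisson intervals; open triangles mark the limit of 3 counts where a class had no UMI, and dotted lines mark 1 and 10 CPM. DPPA4, LIN28A, LIN28B, L1TD1, SALL4 and DNMT3B lie above 10 CPM in every class, and the other 4 genes lie below 1 CPM wherever a UMI was found.

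Of the RNA-binding proteins, LIN28B (GRCh38 chr6:104936616-105083332) had 304 CPM (302 to 306), with a UMI in 97.9% of cells. LIN28A (chr1:26410817-26429728) followed at 224 CPM (223 to 226) and was found in 94.4% of cells. The noncoding gene LIN28B-AS1 overlaps LIN28B and had 8.48 CPM, so a few LIN28B reads may belong to it. L1TD1 (chr1:62194849-62212328), an RNA-binding protein that derives from a transposable element and interacts with LIN28A in stem cells, reached 70.9 CPM (69.9 to 71.8) but was found in only 51.3% of cells. DNMT3B, less abundant at 63.7 CPM, was found in 67.8% of cells, so L1TD1 molecules were held by fewer cells than its level alone would place them in.

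Among nuclear factors, DPPA4 (chr3:109326144-109337546), a chromatin-associated protein, stood at 111 CPM (110 to 112) in 87.5% of cells. SALL4 (chr20:51782331-51802521), a zinc finger factor of stem and germ cells, stood at 54.0 CPM (53.2 to 54.9) in 64.2% of cells. DNMT3B (chr20:32762385-32809359) had an interval of 62.9 to 64.6 CPM. With all cells thinned at random to 5000 UMIs, the shares with a UMI were 76.4% for LIN28B, 64.5% for LIN28A, 45.3% for DPPA4, 29.2% for DNMT3B, 25.8% for L1TD1 and 24.1% for SALL4. Since each captured end counts once while unspliced RNA can add counts in long genes, levels of different genes were also set per kilobase of gene span. On that scale LIN28A was highest at 11.9 CPM per kilobase and DPPA4 second at 9.74, while LIN28B, whose span is 147 kilobases, dropped to 2.07. L1TD1 was at 4.05, SALL4 at 2.68 and DNMT3B at 1.36 CPM per kilobase, and NANOG, the highest of the trace set, was at 0.0280. The share of unspliced reads was not measured, so dividing by the whole span may correct too much. Neither scale gives a firm order between genes within the abundant set.

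Most cells held several of the abundant genes at full depth. All 6 were found together in 22.3% of cells at full depth, 5 in 36.2%, and 8 cells had none. At 5000 UMIs 85 cells (0.612%) showed all 6 and 361 cells (2.60%) showed none, so the joint shares depended on depth.

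The trace genes gave single molecules. NANOG (chr12:7787794-7799146) had 100 UMIs in 100 cells, or 0.318 CPM (0.259 to 0.387). POU5F1 (chr6:31164337-31180731) had 30 UMIs in 30 cells, or 0.0953 CPM (0.0643 to 0.136). ZFP42 (REX1, chr4:187995771-188005046), a zinc finger marker of undifferentiated stem cells, had 51 UMIs in 41 cells, or 0.162 CPM (0.121 to 0.213). TDGF1 (CRIPTO, chr3:46574534-46582457), a NODAL co-receptor, had 1 UMI in all kept cells. No cell held more than 1 POU5F1 or NANOG molecule, whereas ZFP42 reached 2 UMIs in 3 cells, 3 UMIs in 2 cells and 4 UMIs in 1 cell. Near-identical copies exist for POU5F1, NANOG and TDGF1, and reads that fit 2 places equally are not counted by the software used, so these low levels are uncertain. The copy NANOGP8 had 4 UMIs.

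Because droplets can pick up free RNA, trace levels were set beside the markers of the rarest class. In forebrain cells NANOG was at 0.384 CPM (0.310 to 0.470) and POU5F1 at 0.0908 CPM (0.0569 to 0.137). All 9 listed markers of differentiating progenitors read higher there, from 0.656 CPM for NHLH1 to 66.6 CPM for DCX. These values do not give the background of NANOG or POU5F1 itself, which was not measured. Of the forebrain clusters, NANOG was highest in cluster 1, at 0.627 CPM (0.452 to 0.847). It was lowest in cluster 5, at 0.0507 CPM (0.00128 to 0.282) from 1 UMI. Their median depths were alike, at 14353 and 14764 UMIs. Cluster 6, at a median of 13489 UMIs, had 0.279 CPM (0.0906 to 0.651), which overlapped both. Whether a single UMI was expressed by its cell was not tested.

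POU5F1 and NANOG UMIs did not meet in any cell. Of the 30 cells with POU5F1, 0 had NANOG, which allows a share of up to 10% (exact upper bound 11.6%), while 0.720% of the other 13895 cells had it. Of the 100 cells with NANOG, 0 had POU5F1, which allows up to 3%, against 0.217% of the others. A NANOG share above 11.6% of POU5F1 cells lies outside the interval. The shares without the partner gene lie far below these limits, so at this depth a smaller tie, none or avoidance could not be told apart. The 4 trace genes were found singly in 170 cells and as a pair in 1 cell, which held NANOG and ZFP42, and 13754 cells had none of them. Taking all 14726 barcodes added 2 NANOG cells and still gave no overlap.

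POU5F1 and NANOG cells differed from each other in depth. Cells with POU5F1 had a median of 29451 UMIs against 17881 in cells with neither gene, and 17 of the 30 were in the deepest of 4 equal groups by depth. Over these groups, from shallow to deep, POU5F1 cells numbered 4, 3, 6 and 17. NANOG cells had a median of 18141.5 UMIs and numbered 23, 26, 22 and 29, so they were spread almost evenly. As a level, NANOG was 0.586 CPM in the shallowest group and 0.197 CPM in the deepest, whereas POU5F1 had no such order, at 0.102, 0.0550, 0.0811 and 0.116 CPM. After thinning to 5000 UMIs, 4 cells kept POU5F1 (0.0288%) and 24 kept NANOG (0.173%).

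The abundant members were also found in residual cells. Of the 30 POU5F1 cells, 30 had LIN28B, 29 LIN28A, 29 DPPA4, 24 SALL4, 20 DNMT3B and 17 L1TD1. Of the 100 NANOG cells, 99 had LIN28B, 95 LIN28A, 88 DPPA4, 72 DNMT3B, 59 SALL4 and 50 L1TD1. Summed over the 6 genes, median UMIs were 21 in POU5F1 cells and 17 in NANOG cells, against 16 in the shallower cells with neither. Relative to all UMIs of each group, the sum was 720, 787 and 829 CPM in the same order. In summed UMIs, 22 of the 30 POU5F1 cells lay between the 10th and 90th percentile of other cells of like depth. Of the rest, 4 were above and 4 below. For NANOG cells 81 of 100 lay inside, 9 above and 10 below. Such a band holds most cells by construction, and 11415 of the 13795 cells with neither gene lay inside, 1272 above and 1108 below. Over all kept cells, whose classes differ in these genes, the level in POU5F1 cells over the others was 0.684 for DNMT3B (0.501 to 0.913), 0.794 for DPPA4 (0.640 to 0.973) and 0.857 for LIN28B (0.758 to 0.964), and in NANOG cells it was 0.896 for LIN28A (0.819 to 0.979). The other members' intervals held 1. Within the forebrain class, the level of each abundant member in POU5F1 cells over the other cells ran from 0.846 for DPPA4 (0.650 to 1.08) to 1.18 for SALL4 (0.852 to 1.60), and each interval held 1. In NANOG cells the same ratios ran from 0.866 for SALL4 (0.705 to 1.05) to 1.02 for DNMT3B (0.864 to 1.19), again with 1 inside each interval. SOX2, a factor that pluripotent and neural cells share, was at 305 CPM in the 22 forebrain POU5F1 cells and 409 CPM in the rest, a ratio of 0.747 (0.642 to 0.864). PAX6, a neural factor, was at 40.3 and 54.0 CPM, and its interval held 1 (0.478 to 1.11). The SOX2 ratio was 0.966 (0.899 to 1.04) in forebrain NANOG cells and 0.918 (0.798 to 1.05) in forebrain ZFP42 cells. Of the 22 forebrain POU5F1 cells, 14 were called S, the cell cycle phase where forebrain SOX2 was lowest. SOX2 was at 360 CPM in S, 413 in G1 and 458 CPM in G2/M, and the ratios were not split by phase.

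**Figure D2:**
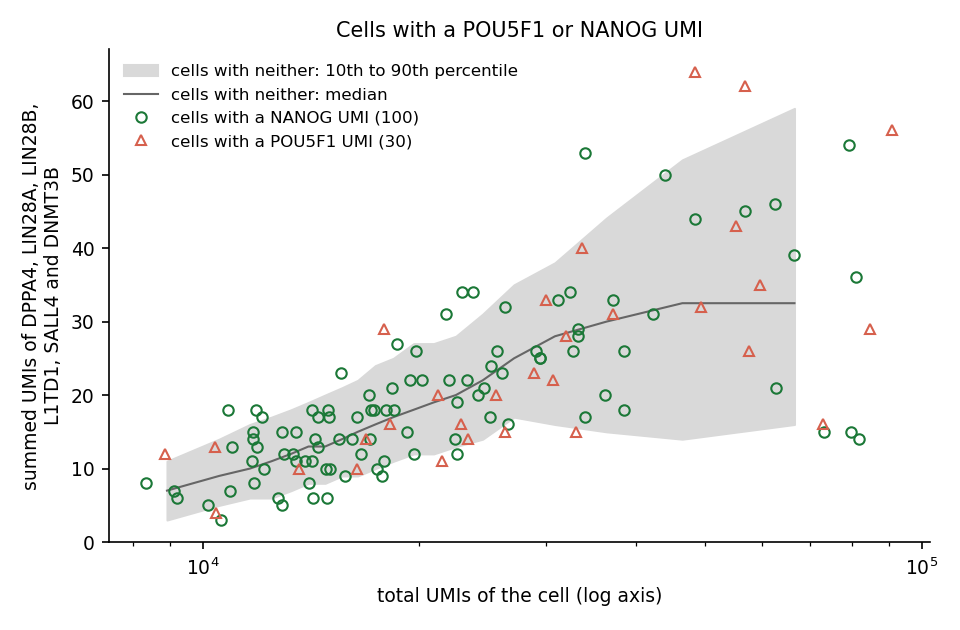
Summed UMIs of 6 abundant members against the total UMIs of the cell (log axis), for 30 cells with a POU5F1 UMI (triangles) and 100 cells with a NANOG UMI (circles); the grey band runs from the 10th to the 90th percentile of the other 13795 cells and the line is their median. Of the marked cells, 22 with POU5F1 and 81 with NANOG lie inside the band of cells of like depth. By construction most other cells do too (11415 of 13795).

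ZFP42 cells had a different make-up. Of 41 cells with a ZFP42 UMI, 17 were contractile, 23 forebrain and 1 differentiating, and 25 were in the deepest group. The level was 0.367 CPM (0.240 to 0.538) in the contractile class and 0.0991 CPM (0.0635 to 0.147) in the forebrain class, a ratio of 3.71 (2.05 to 6.75). The contractile UMIs numbered 26 in 17 cells and the forebrain UMIs 24 in 23 cells. The interval treats UMIs as independent, so it is too narrow where several share a cell. Thinned to an equal 5000 UMIs, the ratio was 4.96 with a wide interval (1.06 to 19.5), resting on few molecules. All 26 contractile UMIs were in cluster 4, led by COL8A1 and GREM1. The other contractile cluster, 9, had 167 cells, and its count of 0 allows up to 1.70 CPM, so it could not show a difference. POU5F1, with 7 contractile and 22 forebrain UMIs, had a ratio of 1.09 (0.393 to 2.64), too wide to tell from that of ZFP42. NANOG went the other way, at 0.0989 CPM in contractile and 0.384 CPM in forebrain cells, a ratio of 0.258 (0.101 to 0.552). Thinned, no contractile NANOG UMI was left and the interval, 0 to 1.44, held 1, and the ratio was 0.651 by UMIs per cell and 0.0605 at resolution 1. As shares of cells, POU5F1 was found in 0.178% of forebrain and 0.488% of contractile cells, and NANOG in 0.751% and 0.488%, at the unequal depths given above. In differentiating cells POU5F1 and ZFP42 had 1 UMI each and NANOG 0 of 106 cells, which allows a share of up to 2.83%.

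By class, the abundant members were lower in contractile than in forebrain cells on the CPM scale, and by very unequal amounts. DNMT3B stood at 13.6 against 78.5 CPM, a ratio of 0.173 (0.162 to 0.185). L1TD1 stood at 19.1 against 86.2 CPM, a ratio of 0.222 (0.210 to 0.235). LIN28B, at 150 against 349 CPM, had a ratio of 0.430 (0.421 to 0.439), while its relative LIN28A, at 188 against 236 CPM, had 0.796 (0.781 to 0.811). The LIN28A ratio depended on the clustering: it was level, at 1.00, at resolution 1 and turned to 1.27 with 15 principal components. DPPA4 lay between at 0.518 (0.503 to 0.535) and SALL4 at 0.588 (0.563 to 0.614). In the small contractile cluster 9 LIN28A was at 232 CPM (210 to 256), near the forebrain level, and the other abundant members were below theirs. Among 18696 genes with at least 100 UMIs, which included 7 of the 10 members, 25.0% were lower by 2-fold or more and 7.39% higher. Of the 7 members, 4 were lower by that much (DNMT3B, L1TD1, NANOG and LIN28B) and 0 higher. LIN28B left this set at resolution 0.2 (0.509) and with 15 principal components (0.657), and so did L1TD1 (0.608 and 1.11). The median ratio was 0.430 over the 7 members and 0.766 over all 18696 genes.

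The scale decided the direction for some of these genes. Contractile cells held 2.52 times as many UMIs each, and counted as UMIs per cell the ratio was 2.01 for LIN28A, 1.48 for SALL4, 1.31 for DPPA4 and 1.09 for LIN28B. DNMT3B and L1TD1 stayed lower per cell as well, at 0.437 and 0.560. Thinning to 5000 UMIs gave ratios of 0.182 for DNMT3B, 0.282 for L1TD1, 0.415 for LIN28B and 0.827 for LIN28A. The L1TD1 ratio ran from 0.365 to 1.11 over the other clusterings, and passed 1 when 15 principal components were used in place of 30. The DNMT3B ratio stayed between 0.153 and 0.437.

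**Figure D3:**
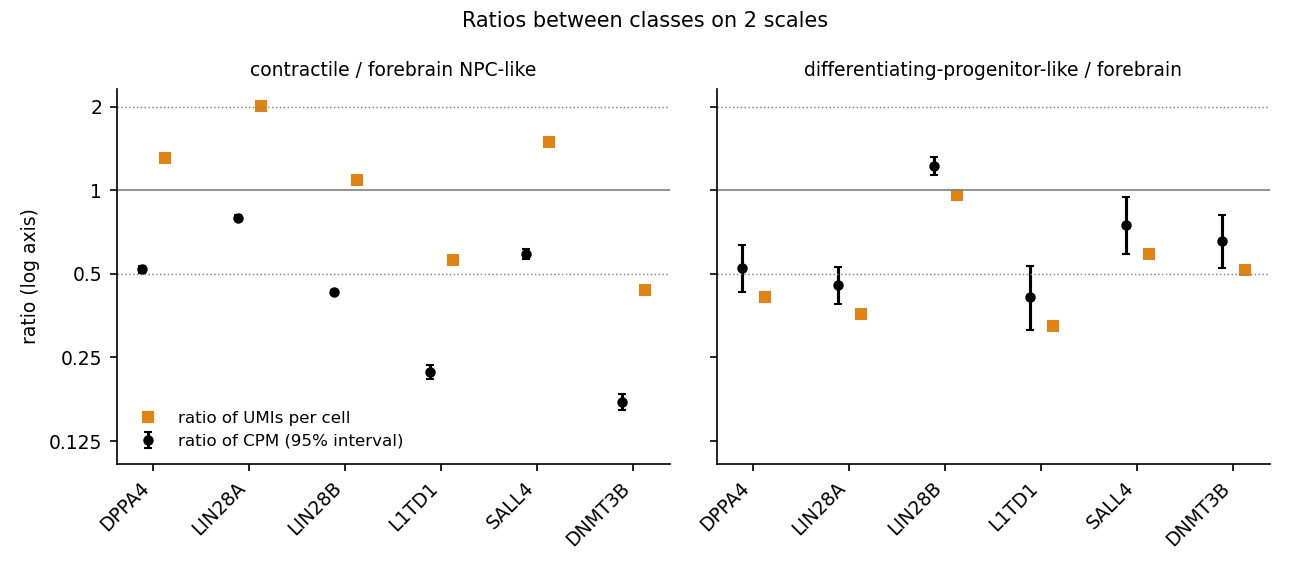
Ratios to the forebrain NPC-like class (log axis) for 6 abundant members, as ratios of CPM with exact 95% intervals (black) and as ratios of UMIs per cell (orange squares), with dotted lines at 2-fold. DNMT3B and L1TD1 are below 1 on both scales in contractile cells, where LIN28B, LIN28A, DPPA4 and SALL4 pass from below 1 to above 1.

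In the 106 differentiating-progenitor-like cells the LIN28 pair parted. LIN28B was at 426 CPM (395 to 459) against 349 CPM in forebrain cells, a ratio of 1.22 (1.13 to 1.32). LIN28A was at 107 CPM (92.0 to 124) against 236 CPM, a ratio of 0.455 (0.390 to 0.528). The ratio was 0.413 for L1TD1 (0.313 to 0.534), 0.525 for DPPA4 (0.430 to 0.635), 0.657 for DNMT3B (0.523 to 0.813) and 0.751 for SALL4 (0.588 to 0.945). The SALL4 ratio turned to 1.11 at resolution 1, and the DNMT3B ratio was 0.431 after thinning. Of the 7 members, 3 were lower by 2-fold or more (LIN28A, L1TD1 and NANOG) and 0 were higher, beside 21.0% of all 18696 genes lower and 12.1% higher. NANOG was counted here with 0 UMIs and an interval of 0 to 6.01 for its ratio, so these few cells could not show whether it differed. The LIN28A call was lost at resolution 0.2 (0.548), at resolution 1 (0.560) and with 15 principal components (0.566). The differentiating cells had 0.786 times the UMIs of forebrain cells, and per cell LIN28B was at 0.960 of the forebrain value.

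Of the 6 abundant members, L1TD1 differed most between clusters of the forebrain class. The trace genes had too few UMIs per cluster to be ranked with it. It was at 128 CPM (124 to 133) in cluster 8, which was led by LINC02334 and SELENOP, and at 115 CPM in cluster 7, led by FGF19. It was at 94.6 CPM in cluster 1, 76.6 in cluster 5, 75.3 in cluster 2 (led by histone genes) and 66.5 CPM in cluster 3 (led by mitotic genes). It dropped to 19.7 CPM (17.7 to 21.9) in cluster 6, led by C1orf61 and EPHA3. The highest and lowest differed 6.51-fold (5.83 to 7.28), and of the 6 neighbouring pairs in this order the intervals of clusters 5 and 2 alone overlapped. At 5000 UMIs, 42.2% of cells of cluster 8 and 7.48% of cluster 6 had an L1TD1 UMI.

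Among the 7 forebrain clusters, to which the orders here are limited, LIN28A and LIN28B differed in where they were high and low, though their orders were not reversed. LIN28A was highest in cluster 8 at 285 CPM (278 to 292) and lowest in cluster 6 at 170 CPM (164 to 176). LIN28B was highest in cluster 6 at 423 CPM (413 to 432) and lowest in cluster 8 at 281 CPM (274 to 288), which overlapped cluster 7 at 290 CPM (284 to 296). DPPA4 and SALL4 were highest in cluster 6 as well, at 171 and 81.9 CPM, and lowest in cluster 7, at 98.9 and 50.8 CPM, though SALL4 in cluster 2, at 51.2 CPM, overlapped the latter. DNMT3B followed another order, from 108 CPM (104 to 111) in the mitotic cluster 3 through 90.3 CPM in cluster 2 to 42.4 CPM (39.9 to 45.1) in cluster 8, a 2.54-fold range. The range was 1.73-fold for DPPA4, 1.67-fold for LIN28A, 1.61-fold for SALL4 and 1.5-fold for LIN28B.

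**Figure D4:**
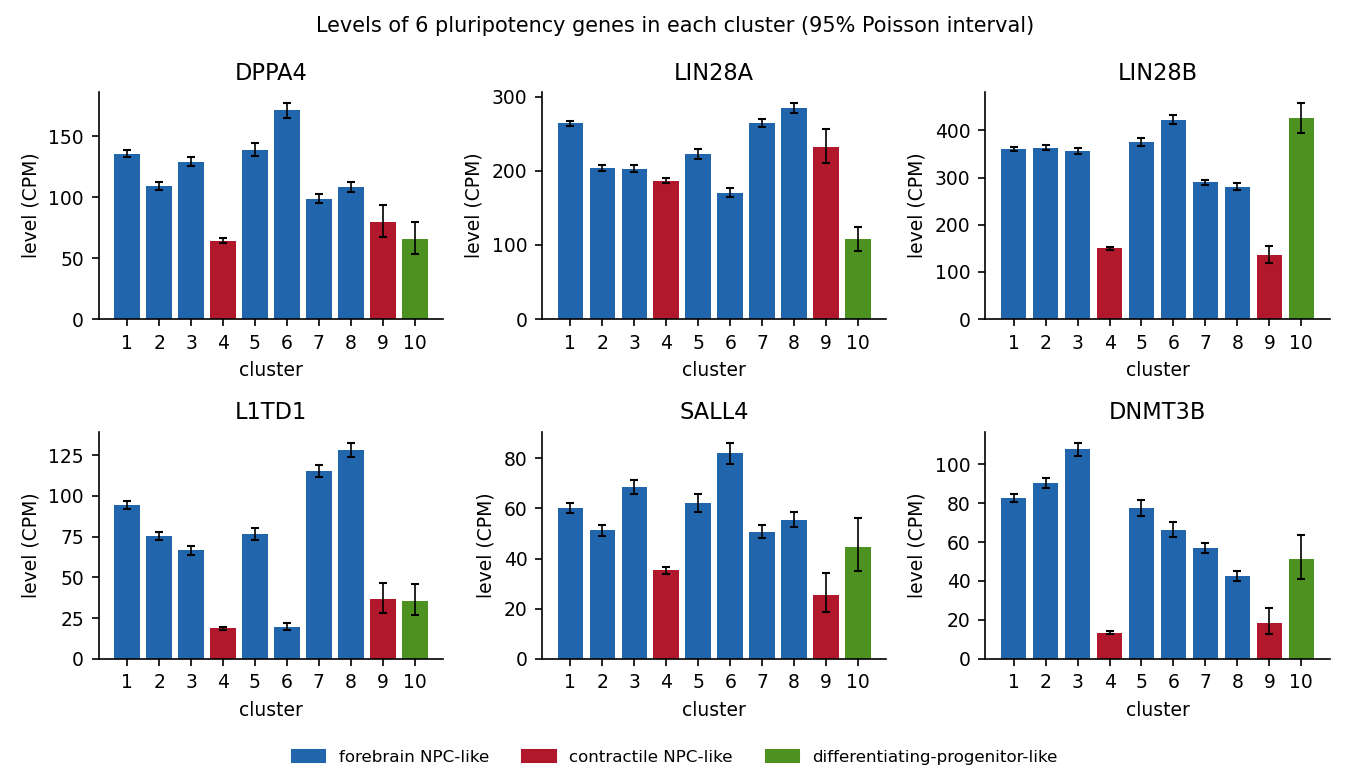
Level in CPM (bars from 0, exact 95% Poisson intervals) of 6 abundant members in each of 10 clusters, coloured by class. Among the forebrain clusters, L1TD1 and LIN28A peak in cluster 8 and are low in cluster 6, where DPPA4, LIN28B and SALL4 are high, and DNMT3B peaks in cluster 3.

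Over 21 units made of 1 cluster and 1 phase each, with at least 50 cells, the level of LIN28A correlated with that of LIN28B at r = 0.00 and with that of L1TD1 at r = 0.73. LIN28B went with DNMT3B at r = 0.91 and with SALL4 at r = 0.84, and DPPA4 with SALL4 at r = 0.77. The units span classes, so these values also hold the difference between classes. In the contractile cluster 4, LIN28B, DNMT3B, SALL4 and DPPA4 were all below their levels in every forebrain cluster. Among the forebrain clusters, LIN28B peaked in cluster 6 and DNMT3B in cluster 3. The genes most like each member among 12915 genes were, for L1TD1, PAX7 (r = 0.97), a paired-box factor of dorsal neural tissue. For LIN28B it was STARD4-AS1 (r = 0.98), for DNMT3B NEK3 (r = 0.97), for SALL4 ZNF793 (r = 0.95), for DPPA4 CCDC160 (r = 0.95) and for LIN28A SLC25A13 (r = 0.92). The units share 1 library, and each value is a description of the best of many candidates.

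Between cells of 1 class, L1TD1 was also the least evenly spread. At 5000 UMIs per forebrain cell, its variance was 1.55 times its mean, which was more than in 94.1% of 4983 genes with a mean of at least 0.2, where the median was 1.07. Cells without L1TD1 made up 72.2%, against 66.0% if molecules were even across cells. The excess was present within cluster 1 too, at 1.5 times. LIN28B followed at 1.24 and LIN28A at 1.15, while DPPA4 (1.05), DNMT3B (1.07) and SALL4 (1.04) were near the value of 1 that counting alone gives. In the same forebrain cells, those with an L1TD1 UMI had 1.07 times the LIN28A (1.03 to 1.11) and 0.946 times the DPPA4 (0.900 to 0.994) of those without. Within clusters 1 and 2, the clusters where this was read, the LIN28A ratio was 0.960 (0.907 to 1.02) and 1.00 (0.906 to 1.11), and the DPPA4 ratio 1.04 (0.962 to 1.12) and 0.805 (0.696 to 0.929). The DNMT3B ratio for cells with an L1TD1 UMI was 1.16 (1.05 to 1.28) and 1.15 (0.999 to 1.33) in these clusters.

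Cell cycle state was called per cell from genes of DNA replication and mitosis. Of the forebrain cells, 3169 were called G1, 5255 S and 3962 G2/M. The abundant members were counted in every phase, and in these calls none of them differed by 1.5-fold on the CPM scale. L1TD1 was at 105 CPM in G1, 78.1 in S and 85.2 CPM in G2/M, ratios to G1 of 0.745 (0.719 to 0.772) and 0.813 (0.785 to 0.843). LIN28A was at 262, 238 and 220 CPM in the same order, and DPPA4 at 140, 123 and 119 CPM. LIN28B was nearly level at 355, 348 and 347 CPM, and SALL4 was at 62.6, 56.8 and 61.1 CPM. DNMT3B was highest in G2/M, at 87.7 CPM against 71.5 in G1 and 72.9 CPM in S, a G2/M ratio of 1.23 (1.18 to 1.28), which was 1.67 among cells with clear phase scores. DNMT1, the methyltransferase that copies methylation at replication, was by contrast at 188 CPM in S and 66.7 CPM in G1, a ratio of 2.82 (2.71 to 2.92). Counted as UMIs per cell, G2/M cells were above G1 cells in all 6, from 1.28 for L1TD1 to 1.93 for DNMT3B, beside a depth 1.58 times that of G1.

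Past 1.5-fold, 1 of the 7 members was lower in S than in G1 and 0 were higher, where 9.62% of all genes tested were lower and 10.5% higher. In G2/M against G1 it was again 1 lower and 0 higher, where 12.3% of genes were lower and 9.04% higher. The member was NANOG both times, from 28 UMIs in G1, 38 in S and 27 in G2/M. Its ratio to G1 was 0.659 in S (0.394 to 1.11) and 0.489 in G2/M (0.278 to 0.862), and S cells had 1.24 times the depth of G1 cells. Per cell the NANOG ratios were 0.818 and 0.771, and among cells with clear phase scores they were 1.12 and 0.971, which ended both calls. POU5F1 UMIs numbered 1 in G1, 14 in S and 7 in G2/M, or 0.0208, 0.141 and 0.0738 CPM. The S to G1 ratio of 6.79 has an interval of 1.03 to 287. Over all phases, 10 of the 22 forebrain POU5F1 molecules were in cluster 2, the cluster led by histone genes. That cluster held 2123 of the 12386 forebrain cells. Its POU5F1 interval, 0.105 to 0.404 CPM, overlapped that of every other forebrain cluster. For cluster 1, at 0.0298 CPM from 2 UMIs (0.00361 to 0.108), the overlap was only at the edge. Overlap alone does not show clusters to be alike, and no POU5F1 ratio between clusters was computed.

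Contractile cells had another phase pattern. DNMT3B was at 6.25 CPM in 261 G1 cells, 14.04 in 431 S cells and 15.5 CPM in 741 G2/M cells. LIN28A was at 133 CPM in G1, 204 in S and 196 CPM in G2/M, and L1TD1 at 13.8, 23.9 and 18.6 CPM. On the CPM scale LIN28A was thus lowest in G1 here and highest in G1 in the forebrain class, whereas as UMIs per cell it was lowest in G1 in both, at 6.01 and 3.98. In every phase all 6 abundant members were below their forebrain levels on the CPM scale.

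**Figure D5:**
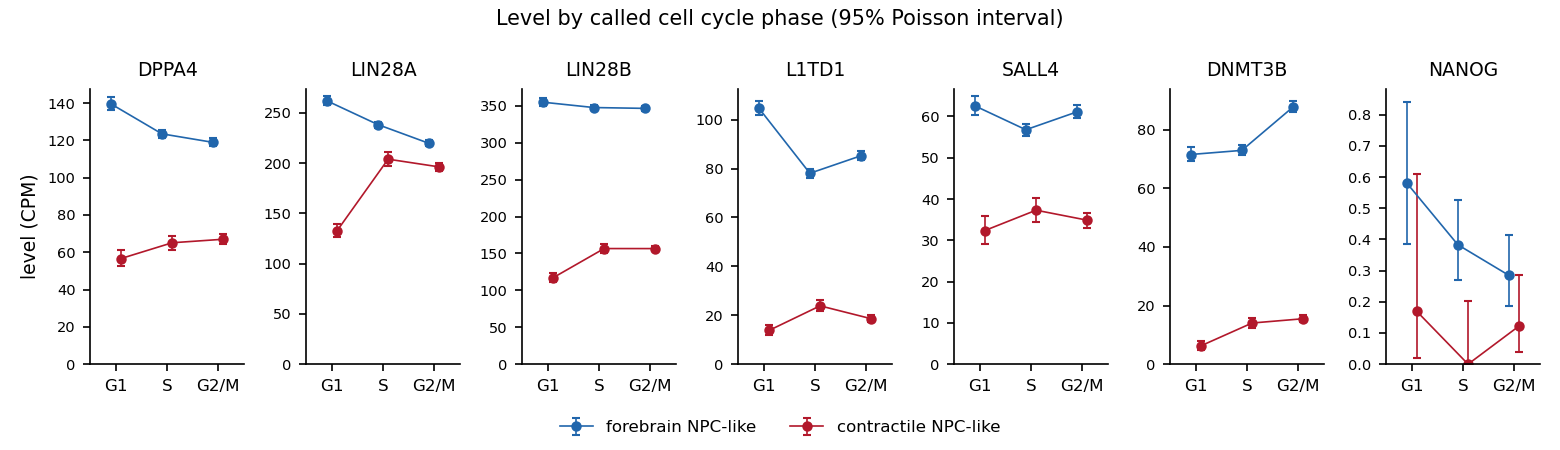
Level in CPM of 6 abundant members and NANOG by called cell cycle phase, in forebrain NPC-like (blue) and contractile NPC-like cells (red), with exact 95% Poisson intervals and an axis from 0 in each panel. DNMT3B is highest in G2/M in forebrain cells, its S and G2/M intervals overlap in contractile cells, and on this scale, unlike per cell, LIN28A is highest in G1 in forebrain cells and lowest in G1 in contractile cells.

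Other genes of the pluripotency network were spread over all levels much as the whole table was. Of 39 further pluripotency-associated genes found in the table, 11 were at 10 CPM or more, 8 between 1 and 10 CPM and 20 under 1 CPM, beside 29.8% and 53.4% of all listed genes at 10 CPM or more and under 1 CPM. The highest were SOX2 at 340 CPM, JARID2, a Polycomb partner, at 226 CPM and the deubiquitinase USP44 at 123 CPM. Of 25 with at least 100 UMIs, 10 were lower by 2-fold or more in contractile cells and 5 higher, beside 25.0% and 7.39% of all 18696 genes. SOX2 was at 111 against 409 CPM, a ratio of 0.272. A pair of genes is named after their values were seen. KLF5, an epithelial and stem cell factor, went from 1.72 to 38.2 CPM, a ratio of 22.2, and the tight junction gene CLDN6 from 16.6 to 154 CPM, a ratio of 9.24.

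Of 13 other genes of the LIN28 and let-7 axis, which holds regulators and targets of let-7, 12 were at 10 CPM or more, beside 29.8% of all listed genes. The highest were HMGA2, a let-7 target, at 380 CPM, and the RNA-binding proteins IGF2BP2 and IGF2BP3 at 367 and 340 CPM. The let-7 host transcript MIRLET7BHG was at 0.191 CPM. In contractile cells 2 of 12 tested were lower by 2-fold or more and 0 higher, and in differentiating cells 3 were lower and 0 higher, near the 25.0% and 21.0% of all genes that were lower. The 3 included HMGA2 at 98.1 against 413 CPM and TRIM71, another let-7 target, at 63.2 against 133 CPM. Of 8 other DNA methylation genes, 7 were at 10 CPM or more, again beside 29.8% of all genes, led by DNMT1 at 145, TET1 at 119 and TDG at 103 CPM, while DNMT3L, a cofactor of DNMT3B in germ and stem cells, was at 0.0222 CPM. DNMT3A, the sister enzyme of DNMT3B, was at 34.2 CPM in contractile and 56.9 CPM in forebrain cells, a ratio of 0.601 (0.575 to 0.627) beside 0.173 for DNMT3B. Within the SALL family, SALL2 stood at 128 CPM, SALL1 at 19.7 and SALL3 at 8.21 CPM, and SALL2 had a contractile ratio of 0.208 (0.199 to 0.217) where SALL1 had 1.21 (1.14 to 1.28).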

How the data were processed

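RNA of single cells from 1 library of differentiated H9 cells was measured with the Chromium Single Cell 3' HT v3.1 kit. The authors deposited raw counts (UMIs per gene and barcode, not normalized), made with Cell Ranger 7.0.1 on GRCh38, with barcodes not called as cells already removed. The submitters' processing notes also name Seurat 4.4.0. The annotation version is not given in the sources used here, and Cell Ranger of this generation counts intronic reads unless told otherwise. The loading wells were indistinguishable, since barcodes share 1 suffix.

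The filter (at least 2000 and at most 10000 genes, mitochondrial share under 10%) followed the study's methods. Each cell was scaled to 10000 counts, then log-transformed. The 2000 most variable genes, with the 10 members left out, gave 30 principal components, a graph of 20 neighbours and Leiden clusters at resolution 0.5 (scanpy 1.11.5, leidenalg 0.10.2, igraph 0.11.9, numpy 2.4.6, scipy 1.17.1, Python 3.11.15). A cluster took a class name when at least 3 of the class markers reached 20 CPM and 3-fold over other cells, or the forebrain NPC-like name when 3 or more forebrain and 3 or more progenitor markers reached 50 CPM. Class names are thus rebuilt and are not the study's. Phases were scored from 43 S and 54 G2/M genes. Scrublet marked 1 barcode, far below the 8% it was set to assume, so its calls were not used and doublets were left in. An alternative left out the highest 8% of its scores. It kept 6 members at 10 CPM or more and 4 past 2-fold between contractile and forebrain cells.

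Levels are summed UMIs per 1000000 UMIs with exact Poisson intervals, ratios carry exact conditional intervals and shares Clopper-Pearson intervals, all at 95%. The ratio step was checked on simulated counts. PCR duplicates are collapsed by UMI, and cells are not replicates, so no test was run. A count of 0 was given the limit of 3 counts. Fold limits were 2 between classes and 1.5 between phases. Gene spans came from GENCODE 44 on GRCh38 and promoter sequences from RefSeq. All 10 members are named, and of each further list its counts, its 3 highest genes and genes that a sentence compares with a member, with exceptions marked in the text. The members, lists and tests were chosen with earlier results of these data known. Alternatives were other filters, clusterings, scales, depths, limits and phase calls.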

Additional observations from a re-analysis of the deposited data

Results flagged for a closer look

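The 801 barcodes outside the quality filter, used only in the alternatives without the filter, also held UMIs of 7 members at more than 3 counts. They had 2727 UMIs of LIN28B, 1927 of LIN28A, 922 of DPPA4, 566 of SALL4, 443 of L1TD1 and 390 of DNMT3B. As levels these were 0.471 (DNMT3B) to 0.807 (SALL4) of those in kept cells. ZFP42 had 11 UMIs in 4 of these barcodes, or 0.847 CPM, 5.23 times its level in kept cells (2.46 to 10.2). The 4 barcodes each had more than 10000 genes and 97315 to 125091 UMIs, and 1 of them held 6 ZFP42 UMIs. The interval of that ratio treats UMIs as independent and is therefore too narrow. POU5F1 had 0 UMIs there, which allows up to 0.231 CPM, and NANOG had 2.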

How the results depend on the processing

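The 6 members at 10 CPM or more numbered 6 under every alternative filter, depth, scale and limit run. No alternative gave a cell with both POU5F1 and NANOG, but only the looser filters could have done so. Thinning, a minimum of 2 UMIs and leaving out the highest Scrublet scores only remove molecules or cells. Lifting the filter added 2 NANOG cells and 0 POU5F1 cells. The share of cells with a POU5F1 UMI, 0.215%, was 0.0288% after thinning and 0 at a minimum of 2 UMIs, and the NANOG share, 0.718%, was 0.173% and 0, by construction. The count of members past 2-fold between contractile and forebrain cells, 4, was 2 at resolution 0.2, 2 with 15 principal components (all lower) and 2 by UMIs per cell (LIN28A higher, 1 lower). The LIN28B ratio reversed to 1.09 by UMIs per cell and, with 15 principal components, the L1TD1 ratio to 1.11 and the LIN28A ratio from 0.796 to 1.27. The cause was not tested. Without clusters 7 and 8, a setting added once the data had been seen, that count was 5. For differentiating cells the count, 3, was 5 at a limit of 1.5-fold and between 2 and 4 elsewhere, at 2 without LIN28A at resolutions 0.2 and 1 and with 15 principal components. For S against G1 the count, 1, was 0 by UMIs per cell, 0 with clear phase scores, 2 at a lower fold limit and 4 in contractile cells, where 3 were higher, and the NANOG ratio reversed to 1.12 with clear phase scores. For G2/M against G1 the count, 1 lower, became 3 higher by UMIs per cell, 1 higher with clear phase scores (DNMT3B at 1.67) and 1 higher in contractile cells. Clear scores left 376 G1 cells. No paired analysis was possible because there was 1 library, and none could be left out. Depth limits POU5F1, NANOG, ZFP42 and TDGF1 most, since each rests on at most 100 UMIs.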
